A study of Mus musculus with 30 samples.

Results

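Lungs of mice kept in 10% oxygen for 4 d were compared with lungs of a group titled Norm. The arrays were chosen by their titles, Hyp4d against Norm, which gave 11 of the 30 arrays of the series: 6 arrays of 4 d and 5 of Norm. Total RNA of whole murine lung was read on Affymetrix MG-U74 version 2 oligonucleotide arrays, which come in 3 types (A, B and C) with different probe sets, and the titles carry the same sample letters on each type. Each group held 2 samples, lettered 1a and 1b. At 4 d there were 2 arrays on each type. Norm had 2 arrays on B, 2 on C and 1 (1b) on A, because the array titled Norm 1a for type A stands in the B table and was left out. Its Spearman correlations with the B arrays lay between -2.77e-03 and 0.00963.

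The 4 d animals had breathed 10% oxygen in a hypoxic chamber, which the labels say was done to induce pulmonary hypertension, before their lungs were taken. Norm is not spelled out in the titles, and the description attached to the Norm samples names a mild acute rejection, a term of transplantation, and no oxygen level. The titles were followed, and whether Norm lungs were untreated cannot be told from the labels. The strain, sex and age of the animals are not given in the sources used here, nor whether a sample is 1 animal or a pool. No label ties 1a and 1b to different animals. The p-values therefore reflect how far these samples differ among themselves, and that may be technical variation. In whole lung, fewer cells of a type and less RNA per cell cannot be told apart.

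Low oxygen in the airspaces narrows the small pulmonary arteries within minutes, and when it lasts, the vessel wall is rebuilt: smooth muscle and fibroblasts divide, endothelial cells change state, and matrix is laid down. Inside cells, low oxygen stabilises the alpha subunits of hypoxia-inducible factor (HIF), which with its partner ARNT binds the core letters ACGTG or GCGTG near the genes it induces, among them genes of glycolysis, of vessel growth and of the control of HIF itself. Endothelin, nitric oxide and prostacyclin set the tone of the pulmonary arteries, and the bone morphogenetic protein receptor BMPR2 is mutated in heritable forms of the human disease.

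Defining lung markers were bright in both groups. Sftpc, a surfactant protein of alveolar type 2 cells, stood at intensities of 13211 and 10121 on the 4 d A arrays and 7199 on the Norm A array. Scgb1a1, the secretory protein of club cells, stood at 8273 and 13924 at 4 d and 12923 in Norm. Ager, of alveolar type 1 cells, stood at 15902 and 13279 at 4 d and 17124 in Norm.

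The A arrays need care. The 4 d arrays 1a and 1b differed by more than 1 log2 unit at 733 A probe sets (8.73%), against 1.47% to 2.07% in the pairs of the other times on A. On C such differences were common in every group, at 9.13% for 4 d, 13.4% for Norm and 7.84% to 12.6% for the other times. On B they were at 2.83% for 4 d and 5.36% for Norm. Over 1303 genes read on both A and B, each array's levels, as deviations from the mean of the 9 samples read on all types, were compared by Spearman correlation. The array labelled Norm 1b on A correlated at 0.15 and 0.10 with the 4 d arrays on B and at 0.00 and 0.00 with the Norm arrays on B. The array labelled 4 d 1a on A correlated at 0.01 and 0.00 with the 4 d arrays on B, and at 0.12 and -0.00 with Norm 1a and 1b. The array labelled 4 d 1b correlated at 0.10 and 0.10 with 4 d, and at 0.03 and 0.09 with Norm. These correlations are small and describe these arrays. Between B and C, over 1538 genes, an array correlated with its own sample at only 0.05 to 0.11. There 4 d 1b on B correlated at 0.07 with its own sample, 0.12 with 4 d 1a and 0.10 with Norm 1a. Likewise 4 d 1a on B correlated at 0.05 with its own sample and 0.09 with 4 d 1b. The check thus tells samples apart weakly on any type, and whether the letters of 4 d match between B and C was not tested. Still, the arrays labelled 4 d 1a and Norm 1b on A each correlated more with an array of the other group than with their own. Array types and 4 d arrays are therefore given apart for the gene groups that are described at length. The 3'/5' signal ratio of beta-actin, a control of RNA quality, also differed within Norm. It stood at 0.0272 and 0.0427 at 4 d and at 0.0453 (1a) and 0.775 (1b) in Norm on B. On C it stood at 0.157 and 0.0979 at 4 d and at 0.104 (1a) and 0.926 (1b) in Norm. On A, where Norm was 1b, it stood at 0.613 and 0.496 at 4 d and 0.644 in Norm. The 2 d arrays, which enter the shared estimate of the spread, stood apart at 3.64 to 4.98 over the 3 types. On B the low ratios came with a dim 3' signal, at 467 and 753 at 4 d and 842 in Norm 1a, against 14883 in Norm 1b. The 5' signals of these arrays lay between 17165 and 19193. Such low ratios are therefore not read as a grade of RNA quality. The 3'/5' ratio of Gapdh, a second control, stood on B at 0.876 (1a) and 1.49 (1b) at 4 d and at 0.926 (1a) and 1.51 (1b) in Norm. On C it stood at 1.28 (1a) and 0.859 (1b) at 4 d and at 0.815 (1a) and 1.33 (1b) in Norm. By Gapdh, Norm 1b was thus close to 1 of the 4 d arrays on B and on C. The part of these controls in the results was not tested.

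Over the 3 array types 25801 probe sets were bright enough to test, and limma fitted all 5 groups so that they shared 1 estimate of the spread. A probe set each of a pair of genes fell at 4 d, and none rose past the threshold. The genes were Ntrk2, the receptor TrkB for the neurotrophins BDNF and NT-4, and Ankrd37, an ankyrin repeat gene known as a direct target of HIF. Their probe sets are the only 2 of 25801 (0.00775%) with an adjusted p under 0.05 (Benjamini-Hochberg over all probe sets), both on the B arrays and both lower. At an unadjusted p under 0.05 there were 1582 probe sets (6.13%), 761 higher (2.95%) and 821 lower (3.18%), beside the 1290 that make up 5% of all tested.

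The Ntrk2 probe set that passed stood at 554 and 407 at 4 d, against 3194 and 4573 in Norm. At the other times it stood at 3846 and 3347 (10 h), 4010 and 3986 (2 d) and 5522 and 5855 (6 d), so that the 4 d arrays lay apart from all 8 others. The log2 difference was -3.01 ± 0.20 (SE), 8.05-fold lower than Norm, with an adjusted p of 0.00281. Ntrk2 was read by other probe sets as well, and these did not pass. On C, the dimmer one stood at 258 and 210 at 4 d and at 367 and 639 in Norm (-1.05 ± 0.50, adjusted p = 0.841), and the brighter one at 2211 and 1345 at 4 d and 2577 and 1851 in Norm (-0.34 ± 0.27, adjusted p = 0.891). On B, a second probe set stood near the floor in both groups, at 153 and 302 at 4 d and 260 and 328 in Norm (-0.06 ± 0.16). The annotation pairs each with the gene and not with 1 transcript form, so which form of the receptor each probe set reads was not looked up.

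Ankrd37 stood at 323 and 238 at 4 d, against 1613 and 2753 in Norm. It stood at 2503 and 2597 at 10 h, 2711 and 2692 at 2 d, and 2111 and 2270 at 6 d. Of the 4 d arrays, 1 lay just above the floor of 297.36 below which B intensities were not read, and the other below it. That array was raised to the floor, so the log2 difference of -2.77 ± 0.22 is a bound, at least 6.80-fold lower than Norm, with an adjusted p of 0.00682. With the floor at the 20th percentile the difference was -2.93 (adjusted p = 0.00861). Other HIF targets are given further on.

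Both probe sets were also lower at 4 d than at every other time in low oxygen. These comparisons share the 4 d arrays with the one against Norm and are no independent support for it. Ntrk2 differed by -2.92 from 10 h (adjusted p = 0.00184), by -3.07 from 2 d (adjusted p = 0.00116) and by -3.58 from 6 d (adjusted p = 5.99e-04). Ankrd37 differed by -3.04 from 10 h (adjusted p = 0.00199), by -3.12 from 2 d (adjusted p = 0.00157) and by -2.82 from 6 d (adjusted p = 0.00418). Over all probe sets 6 (0.0233%) differed between 4 d and 10 h, 1017 (3.94%) between 4 d and 2 d, and 13 (0.0504%) between 4 d and 6 d. Without the other times, in a fit to the 4 d and Norm arrays alone, neither call was kept (adjusted p = 0.167 for Ntrk2 and 0.393 for Ankrd37). Ankrd37 also lost its call when any 1 of the 10 h, 2 d or 4 d samples was left out (adjusted p of 0.0513 to 0.0683), while Ntrk2 kept it without each sample in turn (adjusted p up to 0.0469).

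**Figure D1:**
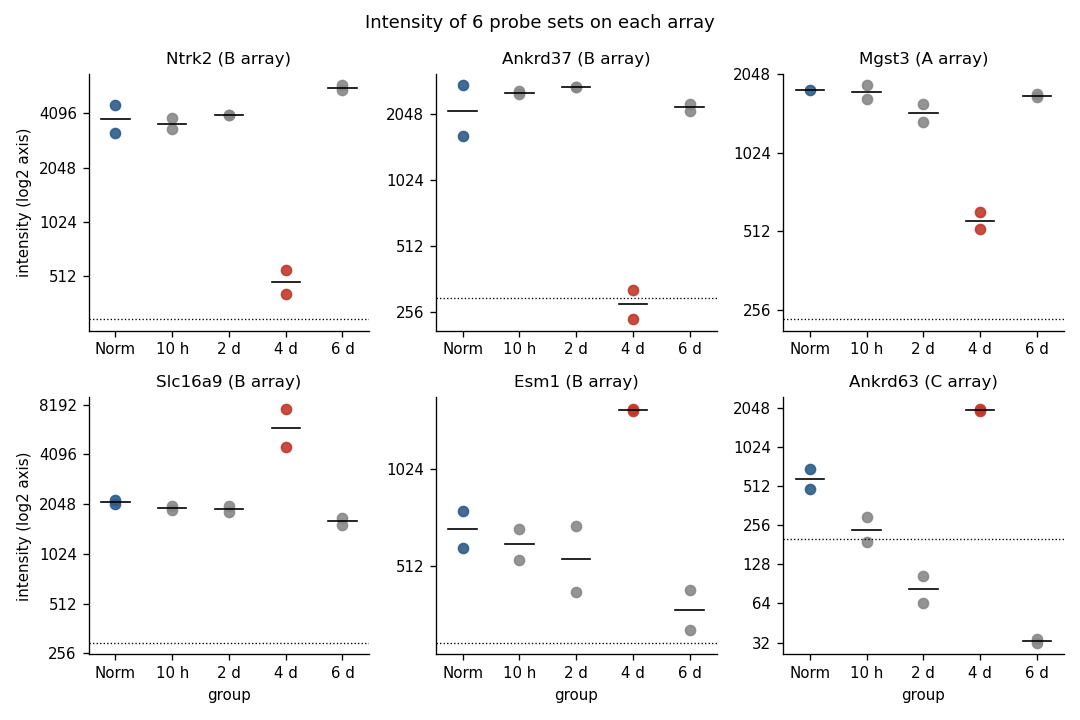
Deposited intensity (log2 axis) of 6 probe sets on each array, by group in the order of time, with 2 arrays a group except Norm on A; points are arrays, black bars the geometric means and dotted lines the floor. The 4 d arrays lie apart from all other arrays in every panel, lower for Ntrk2, Ankrd37 and Mgst3 and higher for Slc16a9, Esm1 and Ankrd63.

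The promoters of both genes are shown because these are the genes that passed and Ankrd37 is a known HIF target. Each window runs from 250 bases before to 50 bases after the gene's start, from RefSeq on GRCm38.p6, 5′ to 3′ on the gene's strand, and capitals mark the letters ACGTG or GCGTG on either strand, with overlapping matches counted apart. Ankrd37 lies on the minus strand, and its window is chr8:45999801-46000100. Ntrk2 lies on the plus strand, and its window is chr13:58806319-58806618.
Ankrd37: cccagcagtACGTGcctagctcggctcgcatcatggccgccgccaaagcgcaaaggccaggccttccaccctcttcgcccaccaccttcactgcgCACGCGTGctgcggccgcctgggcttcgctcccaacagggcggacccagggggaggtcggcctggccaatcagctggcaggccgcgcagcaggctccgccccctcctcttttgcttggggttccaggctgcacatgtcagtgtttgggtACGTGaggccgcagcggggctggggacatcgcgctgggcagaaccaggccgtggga
Ntrk2: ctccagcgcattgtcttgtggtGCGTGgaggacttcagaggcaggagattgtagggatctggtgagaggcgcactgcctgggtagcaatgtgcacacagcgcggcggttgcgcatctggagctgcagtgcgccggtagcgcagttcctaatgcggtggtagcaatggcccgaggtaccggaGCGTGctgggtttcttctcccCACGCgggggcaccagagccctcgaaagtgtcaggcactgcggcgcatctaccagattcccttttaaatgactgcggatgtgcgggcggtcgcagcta
The Ankrd37 window held 4 matches and the Ntrk2 window 3. Of 32851 promoter windows of 300 bases, 43.8% held at least 1 match and 8.93% held 3 or more. A match describes the letters only.

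A few other genes stood apart at 4 d without passing the test. Both 4 d arrays lay more than 1 log2 unit from every other array of their type, in the same direction, at 4 probe sets (0.0155%) on the high side and 5 (0.0194%) on the low side. This measure was chosen after the values were seen, and Esm1, Ankrd63 and Mtx1 are named from it. Esm1, which encodes endocan, a proteoglycan secreted by endothelial cells, stood at 1540 and 1564 at 4 d on B, against 757 and 584 in Norm (1.22 ± 0.30, adjusted p = 0.515). Ankrd63 stood at 1944 and 2005 at 4 d on C, against 689 and 484 in Norm (1.77 ± 0.39, adjusted p = 0.428). On A, Mgst3, a microsomal glutathione S-transferase, stood at 605 and 522 at 4 d and 1788 in Norm (-1.67 ± 0.21, adjusted p = 0.174). Mtx1, a protein of the outer mitochondrial membrane, stood at 220 and 136 at 4 d, below the A floor, and 521 in Norm (at least 2.21-fold lower, adjusted p = 0.629).

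Slc16a9, a transporter of the monocarboxylate family, read higher at 4 d on 2 array types. On B it stood at 4554 and 7701 at 4 d, against 2169 and 2037 in Norm (1.49 ± 0.22, adjusted p = 0.207), and all other times lay between 1533 and 1999. A second probe set on C stood at 35056 and 32593 at 4 d, against 18586 and 15747 in Norm (0.98 ± 0.17, adjusted p = 0.302). On both types the 4 d arrays lay above every other array. The suffix of the C probe set marks probes that can read related sequences. Sox11, a transcription factor of developing tissues, stood at 7439 and 5433 at 4 d on C, against 3106 and 2607 in Norm (1.16 ± 0.22, adjusted p = 0.367). On B it stood at 4078 and 4175 at 4 d, against 2569 and 2220 in Norm (0.79 ± 0.15, adjusted p = 0.367). On A the 4 d arrays disagreed, at 379 (1a) and 2565 (1b), against 2319 in Norm (-1.23 ± 0.88). Neither gene passed on any type.

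Among the B genes of smallest p that read higher at 4 d, the arrays of the groups did not overlap, as at 14.2% of B probe sets. Ldb3, a protein of the muscle Z-disc, stood at 492 and 636 at 4 d, with both Norm arrays at or below the floor (at least 1.88-fold higher, adjusted p = 0.207), and its A probe set differed by -0.13. Fcrla, an Fc receptor-like protein of B cells, stood at 468 and 476 at 4 d, again with Norm below the floor (at least 1.59-fold higher, adjusted p = 0.215). For Ldb3 and Fcrla only the 4 d arrays exceeded the B floor. Both thus met the filter through the group where they are high. Every other array was raised to the floor, which narrows the SE, so their p-values are no support. Mylip, a ubiquitin ligase that acts on the low-density lipoprotein receptor, stood at 2784 and 3805 at 4 d and 1970 and 1772 in Norm (0.80 ± 0.16, adjusted p = 0.428). Thrb, a thyroid hormone receptor, stood at 704 and 661 at 4 d and 265 and 406 in Norm (0.97 ± 0.20, adjusted p = 0.428), with Norm 1a raised to the floor. Its C probe set stood at 246 and 174 at 4 d and 119 and 344 in Norm (-0.24 ± 0.24). On B the 4 d arrays were close to each other for Fcrla and Thrb and further apart for Mylip.

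On the low side of B, where 15.1% of probe sets did not overlap, AU040972 came nearest to the threshold after the 2 that passed. It stood at 2642 and 2243 at 4 d, against 7153 and 7498 in Norm (-1.59 ± 0.19, 3.01-fold lower, adjusted p = 0.0976). It did pass when a probe set had to exceed the floor on 5 or more arrays (adjusted p = 0.0281) or when p-values were adjusted within B alone (adjusted p = 0.0325). Cspg4, the NG2 proteoglycan that marks pericytes, stood at 446 and 190 at 4 d, against 1051 and 1163 in Norm (-1.60 ± 0.24, adjusted p = 0.207), a bound, since 4 d 1b was raised to the floor. Ccdc153, a coiled-coil protein, stood at 1223 and 980 at 4 d, against 2267 and 2171 in Norm (-1.02 ± 0.16, adjusted p = 0.236). Spata5l1, an ATPase of the AAA family, lay below the floor on both 4 d arrays and at 515 and 492 in Norm (at least 1.69-fold lower, adjusted p = 0.298).

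On C, where 13.8% of probe sets did not overlap on the high side and 15.0% on the low side, none passed. Ppm1l, a protein phosphatase, stood at 4161 and 4801 at 4 d and 1956 and 2049 in Norm (1.16 ± 0.18, adjusted p = 0.207). Its other probe sets did not read higher (-0.11 on B and -0.62 on C). Zfp707, a zinc finger gene, stood at 3096 and 2708 at 4 d and 1162 and 616 in Norm (1.77 ± 0.30, adjusted p = 0.274), and its B probe set differed by 0.20. Ppp1ca, a catalytic subunit of protein phosphatase 1, stood at 8406 and 8870 at 4 d and 4084 and 5424 in Norm (0.88 ± 0.16, adjusted p = 0.367), where its B probe set differed by -0.15. Samt3 stood at 352 and 333 at 4 d with Norm below the floor (at least 1.71-fold higher, adjusted p = 0.367). It exceeded the C floor on the 4 d arrays alone, so it met the filter through that group and its p-value is no support. For Ppm1l, Zfp707 and Ppp1ca 1 probe set of several carried the difference.

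Lower at 4 d on C was Lrrc32, which encodes GARP, the cell surface dock of latent TGF-beta, at 4724 and 5160 at 4 d and 7674 and 10528 in Norm (-0.86 ± 0.20, adjusted p = 0.477). Ugt8a, which makes galactosylceramide, stood at 108 and 226 at 4 d and 562 and 507 in Norm (-1.32 ± 0.27, adjusted p = 0.407). Rimklb, a ligase that joins glutamate to other amino acids, and 5033430I15Rik lay below the floor on both 4 d arrays and were at least 2.51-fold and at least 2.36-fold lower than Norm (adjusted p = 0.302 and 0.428). Rimklb exceeded the floor on the Norm arrays alone, so it met the filter through that group and its p-value is no support. A second C probe set of Rimklb stood at 281 and 68 at 4 d, with Norm below the floor (0.24 ± 0.19). Cfap299, named for cilia and flagella, stood at 150 and 224 at 4 d and 486 and 419 in Norm (-1.09 ± 0.24, adjusted p = 0.447). Of Ugt8a and Cfap299, 4 d 1a lay below the floor and was raised to it, so their differences are bounds, and Lrrc32 was bright in both groups.

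**Figure D2:**
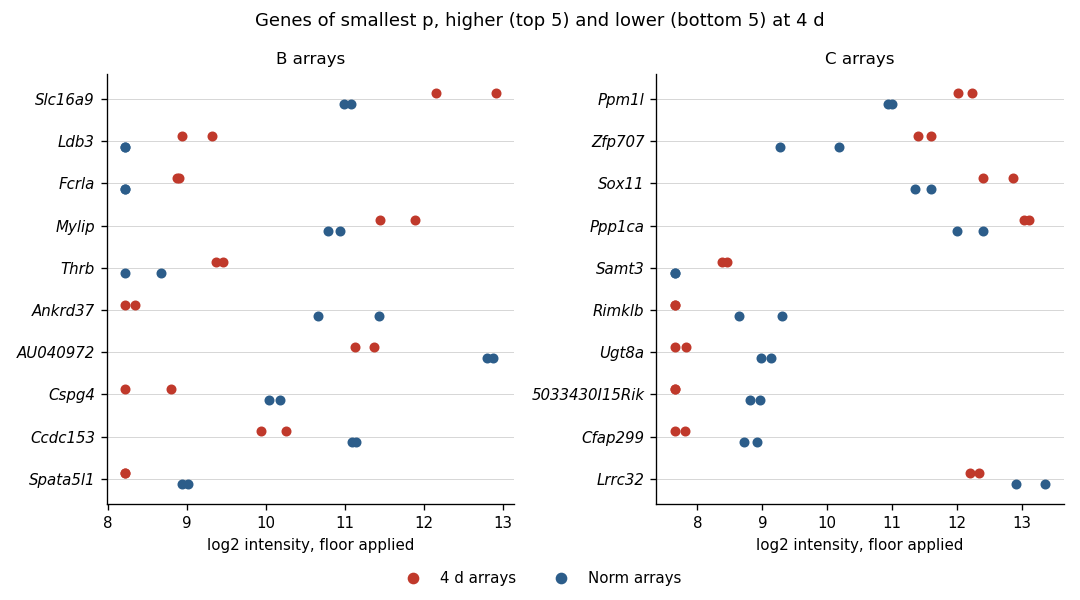
Log2 intensity, with values below the floor set to it, of the 5 genes higher and the 5 lower at 4 d with the smallest p on B and on C. Red points are the 2 arrays of 4 d and blue points the 2 of Norm; the groups do not overlap for any of the 20 genes, and only Ankrd37 passed the adjusted threshold.

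On A, with 1 Norm array, the 2 arrays of 4 d lay on the same side of it at 25.6% of probe sets on the high side and 27.0% on the low side, and none passed. Actb, cytoplasmic beta-actin, read by a probe set that can also read related sequences, stood at 732 and 980 at 4 d and 3656 in Norm (-2.11 ± 0.26, adjusted p = 0.174). A second Actb probe set stood at 708 and 205 at 4 d and 1132 in Norm (-1.47 ± 0.72). The brighter beta-actin control probe sets on A did not show such a fall. The 3' control stood at 10663 and 7859 at 4 d and 11258 in Norm, and the 5' control at 17384 and 15837 at 4 d and 17474 in Norm. Capn1, a calcium-activated protease, stood at 447 and 465 at 4 d and 1748 in Norm (-1.94 ± 0.28, adjusted p = 0.207). Ltbp3, which binds latent TGF-beta, stood at 242 and 98 at 4 d and 540 in Norm (-1.18 ± 0.23, adjusted p = 0.416). Spib, a transcription factor of B cells, stood at 243 and 166 at 4 d and 579 in Norm (-1.27 ± 0.25, adjusted p = 0.428), with 0.15 at a second probe set. For both, 4 d 1b lay below the floor and was raised to it, so these differences are bounds. Higher on A were Cdh3 or P-cadherin (513 and 759 at 4 d, at or below the floor in Norm, at least 2.65-fold) and Ruvbl1, an ATPase of chromatin remodelling (598 and 476 at 4 d, at or below the floor in Norm, at least 2.26-fold). A brighter second A probe set of Ruvbl1 stood at 1358 and 780 at 4 d and 1225 in Norm (-0.25 ± 0.42). Ssbp1, which binds single-stranded mitochondrial DNA, stood at 906 and 818 at 4 d and 366 in Norm (1.23 ± 0.31). Its C probe set lay below the floor on both 4 d arrays and stood at 104 and 313 in Norm (-0.32 ± 0.43). Gas5, the host of small nucleolar RNAs, stood at 487 and 478 at 4 d, with Norm below the floor (at least 2.04-fold higher), and a second probe set differed by 0.32. Fbxw2, of the F-box family, stood at 1344 and 1103 at 4 d and 661 in Norm (0.88 ± 0.23), but differed by 0.03 on B. These 5 had adjusted p of 0.430 to 0.558.

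Genes were then described by 40 lists of pathways and cell types and a list of 24 genes of pulmonary hypertension and hypoxia. Each of 13039 genes was counted once, by 1 probe set. Over all genes the median difference was -0.00, with 47.5% higher at 4 d and 50.8% lower, 2.67% higher and 3.80% lower at an unadjusted p under 0.05, and 18.6% and 21.7% not overlapping on the high and low sides. Of all list members, Ankrd37 alone passed the adjusted threshold (0.00767% of genes), so the rest are given as values.

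Genes of motile cilia read lower at 4 d on the B and C arrays. Of 17 genes there, 14 were lower and 3 higher, with a median of -0.62, where 52.7% of all B and C genes were lower. The 4 d and Norm arrays did not overlap for 10 of the 17 on the low side, against 17.3% of all B and C genes. Ak7, an adenylate kinase of cilia, stood at 752 and 1388 at 4 d and 2098 and 2066 in Norm (-1.03 ± 0.29), and its second C probe set differed by 0.06. Tekt4, a protein of ciliary microtubules, stood at 511 and 514 at 4 d and 761 and 1008 in Norm (-0.77 ± 0.24). Dynlrb2, a light chain of dynein, stood at 3327 and 5751 at 4 d and 6356 and 8443 in Norm (-0.74 ± 0.26), and Spag6l, of the central pair of the axoneme, at 699 and 849 at 4 d and 1296 and 1748 in Norm (-0.97 ± 0.42), and its second C probe set read below the floor on both 4 d arrays and at 453 and 451 in Norm. None of these 4 representatives passed (adjusted p of 0.588 to 0.798). The exceptions, named after their values were seen, were Tekt2, Dnah9 and Dnah5, which read higher by 0.69, 0.46 and 0.06. The summed intensity of the 13 genes on C was 11583 and 15035 at 4 d, against 17233 and 22598 in Norm. The 5 genes on A, Foxj1 among them, had a median of 0.03, with Foxj1, the regulator of motile cilia, at -0.01. Each median over single array pairs on B and C was below 0, from -0.72 to -0.15. Cfap299 and Ccdc153 were not on this list.

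Cell division genes read higher at 4 d on A, and B and C read few of them. Of 24 S phase genes 19 were higher, with a median of 0.38, and of 31 mitosis genes 26 were higher, with a median of 0.51. Most of them are read on A. Over the 19 S phase genes on A, where 50.9% of all genes were higher, 16 were higher and the median was 0.50 for the array labelled 4 d 1a and 0.44 for 4 d 1b, both against Norm 1b. Over the 27 mitosis genes on A it was 0.99 for 4 d 1a and 0.17 for 4 d 1b, and the summed intensity was 29439 and 14390 at 4 d against 12766 in Norm. The arrays of 4 d differed more from each other in the mitosis genes than 4 d 1b did from Norm.

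Mcm3, a subunit of the replicative helicase, stood at 679 and 507 at 4 d and 255 in Norm (1.20 ± 0.32, adjusted p = 0.568). Slbp, which binds histone mRNA, stood at 718 and 745 at 4 d and 324 in Norm (1.18 ± 0.32). Cdc6, which loads the helicase, stood at 407 and 378 at 4 d and 252 in Norm (0.64 ± 0.23), and Lig1, a DNA ligase, at 634 and 433 at 4 d with Norm below the floor (at least 2.22-fold higher). Of the mitosis genes, Ccnb2, a cyclin of mitosis, stood at 2248 and 1321 at 4 d and 923 in Norm (0.90 ± 0.29). Smc2, of condensin, stood at 618 and 427 at 4 d with Norm below the floor (at least 2.18-fold higher). The kinesins Kif20a (678 and 383 at 4 d) and Kif4 (321 and 370 at 4 d) were at least 2.16-fold and at least 1.46-fold higher, again with Norm below the floor. On B and C the 5 S phase genes had a median of 0.04 and the 4 mitosis genes a median of -0.07. Leaving out the array labelled 4 d 1a lowered the medians over all array types to 0.18 for S phase and 0.21 for mitosis. Without Norm 1b, which leaves B and C alone, they were 0.17 over 9 genes and -0.49 over 7.

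**Figure D3:**
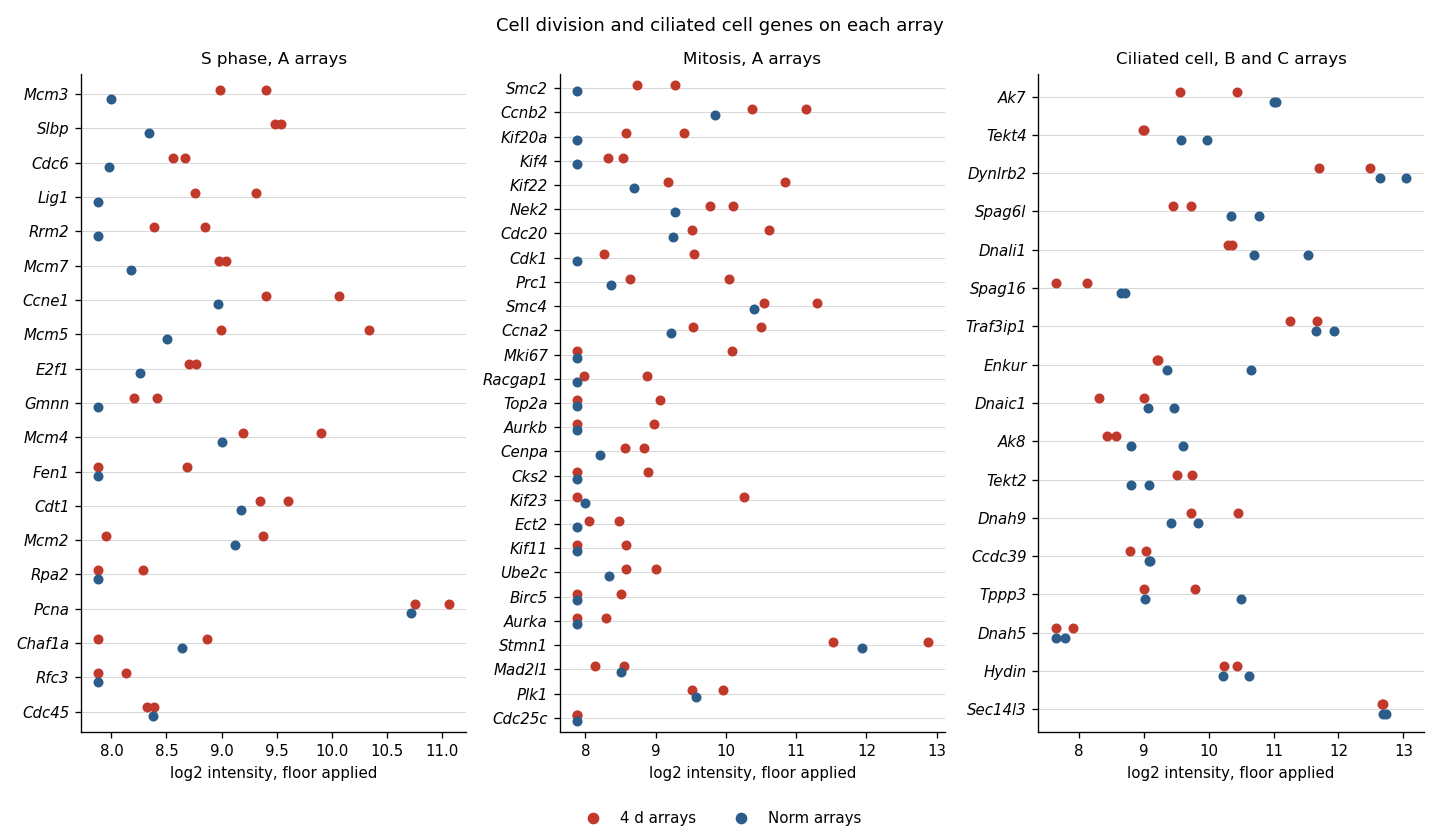
Log2 intensity on each array, with values below the floor set to it, of the S phase and mitosis genes on A (2 red arrays of 4 d, 1 blue Norm array) and the 17 ciliated cell genes on B and C (2 and 2), sorted by p. On A 16 of 19 S phase genes averaged above the Norm array; on B and C 14 of 17 cilia genes averaged below Norm.

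Alveolar type 2 cells, which make surfactant, had 22 tested markers, with a median of 0.04. On B and C 8 of 9 were higher, with a median of 0.39, against 45.2% of all genes there. The medians were 0.17 and 0.16 against Norm 1a, and 0.52 and 0.62 against Norm 1b. Etv5, a transcription factor that maintains these cells, stood at 4976 and 4309 at 4 d and 3826 and 2598 in Norm (0.55 ± 0.20, adjusted p = 0.704). Abca3, the lipid transporter of lamellar bodies, stood at 11674 and 11536 at 4 d and 9046 and 8641 in Norm (0.39 ± 0.19), with 0.42 at a C probe set. Egfl6 stood at 38141 and 27877 at 4 d and 27705 and 14803 in Norm (0.69 ± 0.30). The 13 markers on A had a median of -0.24. Cldn18, a tight junction protein of alveolar epithelium, stood at 10053 and 10070 at 4 d on B and 7469 and 3226 in Norm (1.04 ± 0.35, adjusted p = 0.699). The other 12 type 1 and caveolar markers were mixed, and the list had a median of -0.09. Of 13 club cell markers 10 were lower (median -0.23), among them Scgb3a2 at 1555 and 1029 at 4 d and 1806 and 2233 in Norm. Aldh1a7, a detoxifying dehydrogenase, stood at 2244 and 1899 at 4 d and 1230 in Norm (0.75 ± 0.26). Without the array labelled 4 d 1a the club cell median was 0.07.

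Genes of vessel tone were read next. Of 19 tested genes of endothelin, nitric oxide and prostacyclin 13 were higher, with a median of 0.27, and on B and C 7 of 8 were higher, with a median of 0.42. There the 4 d arrays gave medians of 0.07 and 0.15 against Norm 1a and of 0.64 and 0.79 against Norm 1b, the Norm sample with the higher beta-actin 3'/5' ratio. Ece1, which cuts big endothelin to its active form, stood at 10947 and 7690 at 4 d on B and 5121 and 2280 in Norm (1.42 ± 0.49, adjusted p = 0.701), but its A probe set read -0.34 ± 0.20. Nos1, a nitric oxide synthase, stood at 858 and 876 at 4 d and 357 and 578 in Norm (0.93 ± 0.31, adjusted p = 0.672). Edn1, endothelin-1, stood at 2373 and 1058 at 4 d on A and 710 in Norm (1.16 ± 0.39, adjusted p = 0.696), and at a second A probe set at 1265 and 974 at 4 d and 678 in Norm (0.71 ± 0.24). The endothelin receptor Ednrb was near the floor on A (84 and 406 at 4 d, 287 in Norm), but bright on B, at 8440 and 9113 at 4 d and 5230 and 6146 in Norm (0.63 ± 0.18, adjusted p = 0.600). Nos3, the endothelial synthase, was below the floor on every A array of both groups and has no value, and Ptgis, prostacyclin synthase, stood at 1835 and 1884 at 4 d and 2381 in Norm (-0.36 ± 0.20).

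Of the 24 genes of pulmonary hypertension and hypoxia 21 were tested and none passed. The endothelin receptor Ednra and osteopontin, Spp1, were among those not tested. On A, the 2 arrays of 4 d stood above the Norm array for 6 of 15 genes (Edn1, Tnc, Slc6a4, Postn, Eln and Hif1a), against 26.0% of A genes, and below it for Ptgis and Hmox1, against 28.3%. On B and C they stood below both Norm arrays for 3 of 6 (Epas1, Retnla and Kcna5), against 17.3% there, and above them for none, against 13.6%. For Retnla and Kcna5 the gap was very small. Retnla stood at 1233 on 4 d 1a and 1236 on Norm 1b, and Kcna5 at 264 on 4 d 1b and 268 on Norm 1b. Tnc, tenascin-C of injured matrix, stood at 925 and 317 at 4 d with Norm below the floor (at least 2.29-fold higher, adjusted p = 0.844). Slc6a4, the serotonin transporter, stood at 631 and 746 at 4 d and 347 in Norm (0.98 ± 0.45, adjusted p = 0.841). Eln, elastin, stood at 12250 and 7066 at 4 d and 6639 in Norm (0.49 ± 0.39), and Postn, periostin, at 8923 and 5161 at 4 d and 4593 in Norm (0.56 ± 0.29). Of the 6 genes higher on A, 4 d 1a stood well above 4 d 1b for Edn1, Tnc, Postn and Eln, and not for Slc6a4 and Hif1a.

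Retnla, a mitogen of vessel and airway made in hypoxic rodent lung, read lower at 4 d, at 1233 and 699, against 2301 and 1236 in Norm (-0.86 ± 0.33, adjusted p = 0.742). The BMP receptor Bmpr2 did not differ at its brightest probe set, at 21989 and 22924 at 4 d and 21338 and 23137 in Norm (0.02 ± 0.34), and 2 dimmer B probe sets read 0.52 ± 0.21 and 0.56 ± 0.35. Hif1a, the inducible HIF subunit, stood at 4915 and 5152 at 4 d and 4787 in Norm (0.07 ± 0.22), and Epas1, its endothelial relative, at 18279 and 20134 at 4 d and 20553 and 31318 in Norm (-0.40 ± 0.42). The other members lay between -0.36 and 0.27. They were Vegfa (0.20), Ednrb on A (0.11), Col1a1 (0.27), Acta2 (-0.08), Hmox1 (-0.33), Ptgis, Apln (-0.17), Kcna5 (-0.14), Kcnk3 (0.02) and Fst (0.01), and Slc2a1 and Nos3 were below the floor in both groups. Vegfa and Col1a1 differed in sign between the 4 d arrays, at 4160 and 1667 against 2289 in Norm for Vegfa and at 7642 and 3831 against 4497 in Norm for Col1a1. Acta2 on A did so as well, at 6477 and 4534 at 4 d against 5726 in Norm. Its C probe set stood at 386 and 410 at 4 d and 704 and 565 in Norm (-0.66 ± 0.45). Other probe sets of Apln differed by 0.26 on A and 0.18 on C.

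**Figure D4:**
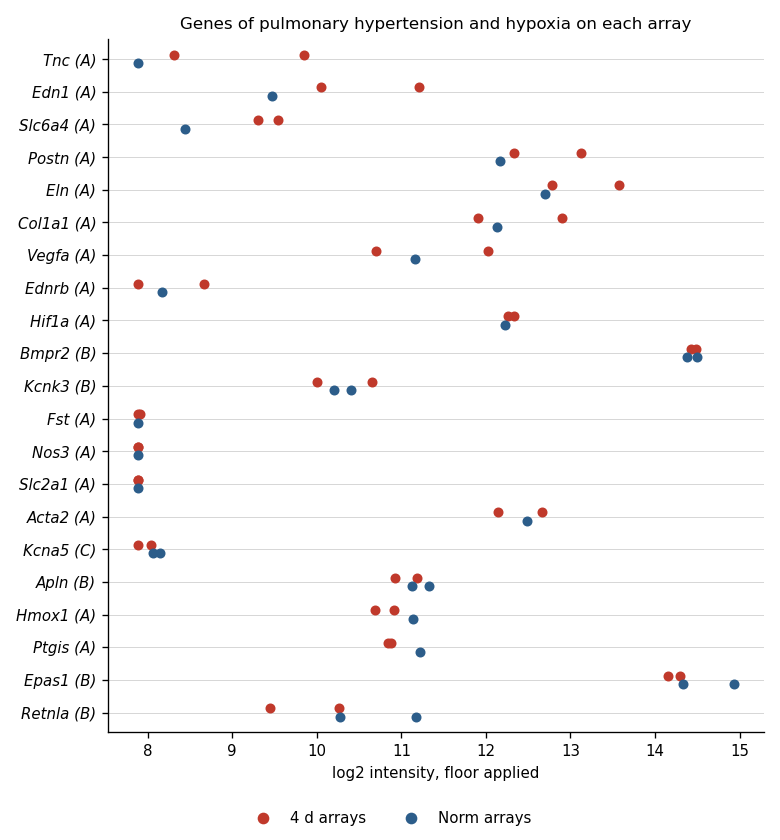
Log2 intensity on each array, with values below the floor set to it, of the 21 tested genes of pulmonary hypertension and hypoxia, sorted by the mean difference; the letter gives the array type, red points are 4 d arrays and blue points Norm arrays (1 on A, 2 on B and C). Red points lie well apart from each other for Tnc, Edn1, Eln, Col1a1 and Vegfa on A.

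HIF targets and glycolysis were split. Of 33 genes 17 were higher and 14 lower, with a median of 0.01, at 0.08 for the 26 on A and -0.14 for the 7 on B and C. Ankrd37 fell, as above. Ddit4, an inhibitor of mTOR signalling, stood at 1545 and 798 at 4 d and 484 in Norm (1.20 ± 0.36, adjusted p = 0.653). Aldoa, an enzyme of glycolysis, stood at 5700 and 4205 at 4 d and 8370 in Norm (-0.77 ± 0.25, adjusted p = 0.672), and Hk1, hexokinase 1, at 5750 and 3061 at 4 d and 7064 in Norm (-0.75 ± 0.38). The HIF targets Ldha, Pgk1, Pdk1 and Bnip3, named after their values were seen, read 0.15, 0.19, 0.18 and -0.17, each within its own SE of 0. Of the 11 oxygen sensing genes, 6 were higher and 5 lower, with Egln3, a prolyl hydroxylase that marks HIF for destruction, at -0.43 ± 0.30 and Arnt at 0.29 ± 0.17. A B probe set of Egln3 differed by 0.13 ± 0.19. Of 16 genes of VEGF and angiopoietin 9 were lower (median -0.05), among them Nrp2, a co-receptor, at 1045 and 942 at 4 d and 1435 and 1393 in Norm (-0.51 ± 0.20).

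Matrix genes on A mostly read higher at 4 d 1a. Of 18 collagen genes 15 were higher, with a median of 0.23, and the 16 on A had a median of 0.56 for 4 d 1a and 0.01 for 4 d 1b. Without 4 d 1a the median over the list was 0.00. Col15a1, of vascular basement membrane, stood at 743 and 548 at 4 d and 355 in Norm (0.85 ± 0.40, adjusted p = 0.853), and Col4a2 at 12297 and 9395 at 4 d and 7809 in Norm (0.46 ± 0.25), but its C probe set differed by -0.60 ± 0.24. Of 14 elastic fibre genes 10 were higher (median 0.18). Mfap4, a microfibril protein, stood at 3050 and 919 at 4 d and 384 in Norm (2.12 ± 0.61, adjusted p = 0.629). Mfap2 stood at 1198 and 1225 at 4 d and 1722 in Norm (-0.51 ± 0.19), and Emilin1 on B differed by -0.72 ± 0.29. Of 17 matricellular genes 9 were higher (median 0.07), Fn1, fibronectin, among them at 2681 and 2262 at 4 d and 1799 in Norm (0.45 ± 0.23). Matrix proteases and their inhibitors had a median of -0.16 over 13 genes.

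In the vessel wall, 15 smooth muscle contractile genes had a median of -0.08, with Myl9 on A at 1547 and 1772 at 4 d and 1031 in Norm (0.68 ± 0.25). Tpm1 on A stood at 7727 and 5493 at 4 d and 4318 in Norm (0.59 ± 0.25). Its brightest B probe set differed by -0.13 ± 0.22 and its C probe set by 0.30 ± 0.44. All 4 pericyte and PDGF genes on B were lower without overlap, against 17.3% of B and C genes, with a median of -0.30. Beside Cspg4, Pdgfb, the growth factor that recruits pericytes, stood at 4968 and 3733 at 4 d and 5146 and 6477 in Norm (-0.42 ± 0.21, adjusted p = 0.853). Its A probe set differed by 0.36 ± 0.42. The 7 pericyte and PDGF genes on A had a median of 0.22. Of 20 endothelial genes 11 were higher (median 0.06). Lyve1, a hyaluronan receptor of lymph vessels, stood at 3832 and 3787 at 4 d on B and 2254 and 1829 in Norm (0.91 ± 0.20, adjusted p = 0.440), but its A probe set stood at 989 and 1713 at 4 d and 2055 in Norm (-0.66 ± 0.32). Of 27 genes of BMP and TGF-beta signalling 15 were lower (median -0.05). On A, Id3, a BMP target, stood at 2397 and 2676 at 4 d and 3805 in Norm (-0.59 ± 0.18, adjusted p = 0.657), and Smad6, another, at 2435 and 3471 at 4 d and 5564 in Norm (-0.94 ± 0.29, adjusted p = 0.665). Tgfbr2 on B differed by -0.48 ± 0.20, and Smad5 on C by 0.85 ± 0.29, with 0.20 on B.

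**Figure D5:**
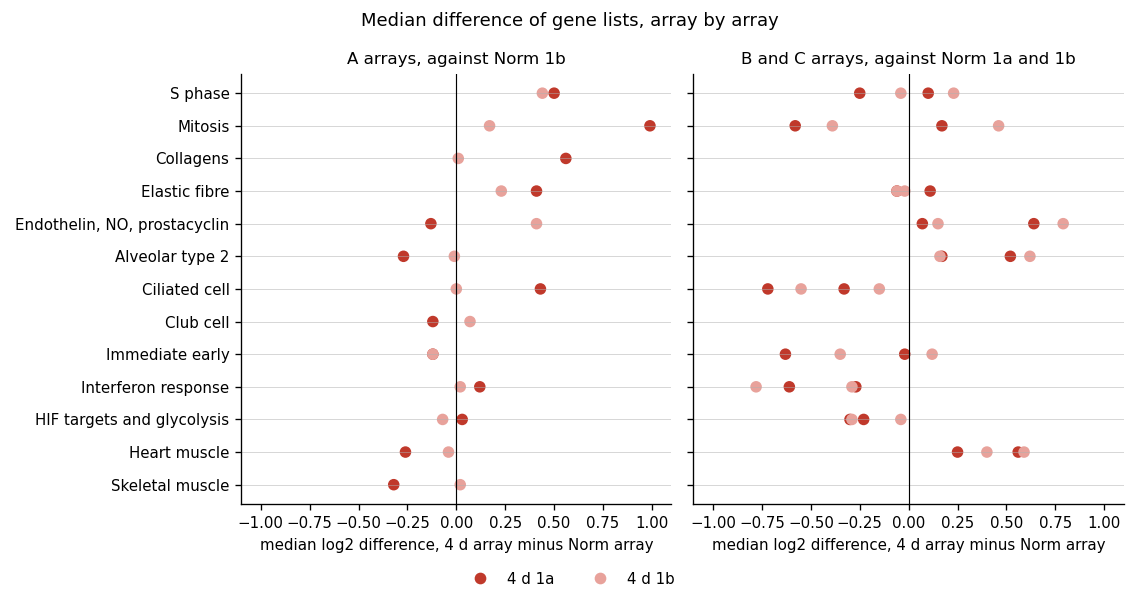
Median log2 difference of 13 gene lists for single pairs of arrays, 4 d 1a (dark) or 1b (light) minus a Norm array, on A against Norm 1b and on B and C against Norm 1a and 1b, shown where at least 3 genes were read. The mitosis median on A is 0.99 for 4 d 1a and 0.17 for 4 d 1b, and the ciliated cell medians on B and C are all below 0.

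Of 23 immediate early genes 16 were lower (median -0.14), among them Ier2 at 1817 and 1735 at 4 d and 3150 in Norm (-0.83 ± 0.19, adjusted p = 0.515) and Maff, a small MAF factor on B, at 1376 and 1205 at 4 d and 1751 and 3281 in Norm (-0.90 ± 0.26, adjusted p = 0.620). Interferon genes had a median of 0.00 over 25, but all 5 on B were lower, with a median of -0.65. Rsad2, the antiviral protein viperin, stood at 1994 and 1775 at 4 d and 2972 and 2917 in Norm (-0.65 ± 0.15, adjusted p = 0.496) on B, where its A probe set read 0.06. Stat2, a transcription factor of the interferon response, stood at 959 and 1001 at 4 d and 1221 and 3143 in Norm (adjusted p = 0.719). For Stat2 and Oasl2 the Norm arrays differed by more than the 4 d arrays did from Norm 1a. Of 23 antioxidant genes, all on A, 16 were lower, against 47.9% of A genes, and 10 were lower without overlap, against 28.3% (median -0.12), with Mgst3 as above and Prdx3, a mitochondrial peroxiredoxin, at 1596 and 1512 at 4 d and 2240 in Norm (-0.53 ± 0.17, adjusted p = 0.672), while Gsta4 stood at 785 and 727 at 4 d and 426 in Norm (0.82 ± 0.29).

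Markers of other cell types the lung samples could hold were mixed. Heart muscle genes, which mouse lung carries in its pulmonary vein sleeves, had a median of -0.11 over 26. The 20 on A had a summed intensity of 26801 and 30200 at 4 d and 33898 in Norm, with Myl7, an atrial myosin light chain, at 2619 and 3181 at 4 d and 4975 in Norm (-0.79 ± 0.21, adjusted p = 0.568). The B probe set of Myl7 overlapped, at 965 and 1118 at 4 d and 1009 and 896 in Norm (0.13 ± 0.27). The 6 heart muscle genes on B and C, Ldb3 among them, had a median of 0.37. Skeletal muscle genes had a median of -0.13 over 18, with Acta1 at 1700 and 3941 at 4 d and 6076 in Norm (-1.23 ± 0.44), and their sum on A was 10149 and 14234 at 4 d and 17057 in Norm. Red cell and heme genes had a median of 0.14 over 21, macrophage genes 0.05 over 23, B cell genes 0.01 over 13, neutrophil and mast cell genes -0.00 over 10, fat tissue genes -0.05 over 8 and liver plasma proteins -0.04 over 4. T and NK cell genes had a median of 0.21 over 11, but the 4 d arrays differed on A, at -0.10 for 1a and 0.62 for 1b, and the list stood at 0.61 without 4 d 1a and -0.05 without 4 d 1b. The 12 B cell genes on A summed to 9131 and 9063 at 4 d and 8687 in Norm, beside Fcrla on B.

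Neurotrophins and their receptors, the family of Ntrk2, had 8 tested genes with a median of -0.00. Among them Gfra1, a receptor of the GDNF family, stood at 294 and 231 at 4 d on B, both below the floor, and 519 and 744 in Norm (at least 2.09-fold lower, adjusted p = 0.375). Its C probe set overlapped, at 267 and 341 at 4 d and 459 and 281 in Norm (-0.25 ± 0.40). The representative probe set of Ntrk2 was the one on C at -0.34. Circadian clock genes had a median of -0.14 over 20, at -0.53 for the 9 on A, of which 8 were lower, and 0.23 for the 11 on B and C. Medians were -0.10 for glucocorticoid response genes over 18, with Cdkn1a, a cell cycle inhibitor, at 834 and 618 at 4 d and 386 in Norm (0.90 ± 0.31), and 0.00 for chemokines and cytokines over 18. They were 0.13 for heat shock proteins over 15 (on A 0.39 for 4 d 1a and -0.11 for 4 d 1b), 0.00 for the respiratory chain over 35 and -0.02 for the cytoplasmic ribosome over 24. They were 0.04 for sterol and fatty acid synthesis over 18, 0.02 for potassium channels over 15 and -0.09 for the actin cytoskeleton over 16.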

How the data were processed

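Total RNA of murine lung was read on Affymetrix MG-U74 version 2 arrays of types A, B and C. The deposited values are 1 linear intensity per probe set and array. The authors had already scaled these intensities, since the trimmed means (2% from each end) lay between 800.2 and 800.4 on every array, and no further scaling was applied. The software that summarised the probes is not given in the sources used here. Groups followed the titles, and 29 arrays entered the fits. Per array type, control probe sets were removed, intensities were raised to a floor at the 40th percentile (236.05 on A, 297.36 on B, 200.93 on C), and probe sets above it on at least 2 arrays were tested as log2 values. The number of arrays limits the precision.

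A model of 5 group means was fitted to each array type with limma 3.58.1 in R 4.3.3 (lmFit, then eBayes with a trend), and the difference 4 d minus Norm was tested. P-values were adjusted by Benjamini-Hochberg over the 25801 probe sets of all types, with a threshold of 0.05, and errors are the SE. A fold against a group at the floor, or with 1 array raised to it, is a lower bound. The steps were tested on simulated data. Genes were named from the platform annotation, where 1 symbol is given for 10833 (A), 10581 (B) and 7717 (C) probe sets, several for 396, 178 and 150, and none for 1193, 1652 and 4001. A gene's representative is a probe set with a plain identifier before one with a suffix, then the brightest. Named are all probe sets past the threshold, the 5 genes higher and 5 lower of smallest p on each type, up to 4 members of smallest p of a list, and every tested gene of pulmonary hypertension. The members and lists were chosen with earlier results of these data known. Alternatives covered the floor, the filter, the scaling, the groups in the fit, the trend, the adjustment, the replicate block and leaving out each sample.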

Additional observations from a re-analysis of the deposited data

How the results depend on the processing

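Of 135 gene probe sets followed through 22 alternatives, 118 changed neither direction nor call. The 2 calls became 3 with the floor at the 20th percentile and 3 with adjustment within an array type, 4 when at least 5 arrays had to be above the floor, and 61 (50 lower) with no filter on dim probe sets, where 36701 were tested. The fit with no filter takes in probe sets raised to the floor on every array, which have no spread, so its count is no support. The calls became 0 when limma was fitted without any other time (858 at an unadjusted p under 0.05) and with 10 h as the sole other time (1121), which hold fewer samples. There Ntrk2 stood at -3.01 with limma adjusted p of 0.167 and 0.0658, and Ankrd37 at -2.76 with 0.393 and 0.148. Leaving out each sample in turn gave 1 to 8 calls, with 8 without Norm 1a, 5 without Norm 1b and 1 without 4 d 1b or any 10 h or 2 d sample. Ankrd37 ranged from -3.16 to -2.38 and Ntrk2 from -3.27 to -2.75. The cause was not tested. Moves of the gene list medians were set against the standard deviation of 2 values, the list medians of 4 d 1a and of 4 d 1b, each minus Norm 1b. They were larger than it in 149 cases and no larger in 715. This measure holds no spread between Norm samples.

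Calls were gained by AU040972 (as given above) and by Actb, just under the threshold, with at least 5 arrays above the floor. Slc16a9 on B gained a call without 4 d 1a (log2 difference 1.87). With no filter Fcrla and Samt3 gained calls as well (limma adjusted p of 7.78e-07 and 1.34e-04). Both were raised to the floor on every array outside 4 d, so these adjusted p are no support. The sign turned for Ednrb on A (-0.64 with the lower floor, -0.04 with quantile and -0.03 with median scaling), Hif1a (-0.07, median scaling), Vegfa (-0.01, replicate block) and Fst (-0.01, crossed block). Without single samples it turned within the ranges -2.61 to 0.15 for Sox11 on A, -0.46 to 0.86 for Vegfa, -0.34 to 0.18 for Acta2, -0.23 to 0.77 for Col1a1, -0.3 to 0.35 for Kcnk3, -0.04 to 0.07 for Bmpr2 and -0.7 to 0.02 for Ntrk2 on C.

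Over probe sets, the 1a minus 1b differences of 4 d and of Norm correlated at 0.13 on B and -0.11 on C. These values are weak and differ in sign, and they cannot settle whether the letters pair the samples. With the letter as a replicate block there were 2 calls, Ntrk2 at -3.01 (adjusted p = 0.0120) and Ankrd37 at -2.77 (adjusted p = 0.0145). With the pairing crossed, chosen after seeing the data, there were also 2. Probe sets near the floor limit what the dimmer genes show.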
